A study of Mus musculus with 2 samples.

Results

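The genes described here are 10 regulators of T cell memory and exhaustion, namely Tcf7, Lef1, Satb1, Il7r, Bach2, Slamf6, Id2, Id3, Tox and Tox2, chosen by symbol among the 32285 genes of the count matrices. All 10 were found in both libraries, and they were read in T cells, split into CD8, CD4 and Foxp3 cells, and in natural killer (NK) and B cells. The joint or exclusive detection of Tox and Tcf7 in single cells was read as well. The data were single-cell 5′ transcript counts (10x Genomics, version 2 chemistry) from optic nerves of Nf1-OPG mice, a model of optic pathway glioma. The vancomycin library came from mice given the antibiotic from week 6 to week 12 of age, and the control library from mice labelled as control, for which the series' design names PBS. Both groups carried the same alleles, Nf1flox/neo; GFAP-Cre, so that all cells were heterozygous through a neomycin cassette in exon 31 of Nf1 and neuroglial progenitors lost the gene under the GFAP promoter. Each library pooled 10 mice harvested at 12 weeks, and there was 1 library per group. No test between the groups was therefore possible. The intervals given below are 95% intervals of counting error only, and they do not hold the spread between mice.

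Naive and memory T cells keep a quiescent, self-renewing state with the help of TCF-1 (the product of Tcf7) and its relative LEF-1, and they depend on interleukin 7 through its receptor. T cells that meet antigen for a long time, as in tumours and chronic infection, can enter an exhausted state that the HMG-box factor TOX helps to establish and in which inhibitory receptors such as PD-1 are kept on. Cells that hold TCF-1 within such a population are known as its progenitors, whereas cells without it are closer to terminal exhaustion.

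Promoter sequences are shown for Il7r, Lef1, Satb1 and Tox2, because these 4 genes separated cells with Tox from cells with Tcf7 in both libraries, as described further on. Each runs from 250 bases before to 50 bases after a RefSeq transcript start, on the GRCm38.p6 build and in the direction of the gene. The letters CTTTGA, which lie within the sequence that TCF-1 and LEF-1 bind, were searched on both strands, and matches are in capitals. Of several starts of a gene, the one with most matches is shown, then the one nearest the annotated gene start.
Il7r, chr15:9529827-9530126, minus strand: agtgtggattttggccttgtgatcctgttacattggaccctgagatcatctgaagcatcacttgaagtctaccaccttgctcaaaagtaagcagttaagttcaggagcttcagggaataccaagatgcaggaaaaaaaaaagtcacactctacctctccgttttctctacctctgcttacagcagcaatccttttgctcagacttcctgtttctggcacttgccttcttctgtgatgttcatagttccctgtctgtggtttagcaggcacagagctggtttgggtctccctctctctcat
Lef1, chr3:131156044-131156343, plus strand: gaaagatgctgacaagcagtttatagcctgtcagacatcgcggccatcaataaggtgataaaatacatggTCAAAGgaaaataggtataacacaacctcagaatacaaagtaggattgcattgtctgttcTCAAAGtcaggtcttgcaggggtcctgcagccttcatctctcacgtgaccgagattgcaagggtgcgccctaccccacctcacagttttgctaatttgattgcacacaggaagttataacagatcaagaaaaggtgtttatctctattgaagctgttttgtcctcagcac
Satb1, chr17:51833241-51833540, minus strand: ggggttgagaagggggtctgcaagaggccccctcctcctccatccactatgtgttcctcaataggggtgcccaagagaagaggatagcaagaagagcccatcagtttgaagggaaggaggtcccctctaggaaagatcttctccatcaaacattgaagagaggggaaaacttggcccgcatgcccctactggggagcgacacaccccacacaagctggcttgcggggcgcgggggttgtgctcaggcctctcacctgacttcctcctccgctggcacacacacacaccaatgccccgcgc
Tox2, chr2:163225203-163225502, plus strand: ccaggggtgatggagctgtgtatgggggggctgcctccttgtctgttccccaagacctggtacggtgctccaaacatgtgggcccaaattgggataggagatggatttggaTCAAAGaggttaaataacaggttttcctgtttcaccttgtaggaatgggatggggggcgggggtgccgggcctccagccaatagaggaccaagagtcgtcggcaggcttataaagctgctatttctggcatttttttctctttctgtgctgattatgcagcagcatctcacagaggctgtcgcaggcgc
RefSeq gave 21 such promoters for 9 of the 10 genes, Tox being the other one. The motif stood in 4 of the 21, of Lef1, Bach2 and Tox2, and in 16.0% of all 32851 promoters of the same length. The Lef1 start shown lies 45.8 kb inside the gene and holds 2 matches, and the Tox2 start lies 22.3 kb inside and holds 1. The promoters shown for Il7r and Satb1 hold no CTTTGA in this window. A match is a run of letters, and binding was not measured.

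The vancomycin library held 15726 cells after filtering, with a median of 6970 UMIs (distinct transcript molecules) per cell, and the control library held 4108 cells with a median of 4870.5 UMIs. T cells, taken as cells with at least 2 UMIs of Cd3d, Cd3e and Cd3g together, numbered 4460 in the vancomycin library and 1940 in the control library, with median depths of 4550 UMIs with vancomycin and 5166 UMIs in control. They comprised 1685 CD8, 1166 CD4 and 590 Foxp3 cells in the vancomycin library, against 919 CD8, 530 CD4 and 141 Foxp3 cells in the control library. The Foxp3 gate took T cells with Foxp3 and without Cd8a or Cd8b1, and Cd4, which it did not ask for, was found in 53.2% of its vancomycin cells and 67.4% of its control cells. There were 128 NK and 531 B cells in the vancomycin library, against 87 NK and 46 B cells in the control library. The NK marker Eomes was found in 43.8% of the vancomycin NK cells and 64.4% of the control NK cells. Free RNA differed between the libraries. Jchain, a plasma cell gene, was found in 51.5% of vancomycin T cells against 18.1% of control T cells. In the B cell gate it was found in 82.3% of vancomycin cells and 73.9% of control cells, so levels there are read as those of the gate. T cells with at least 2 UMIs of markers of other cell types made up 18.9% of the vancomycin T cells and 7.32% of the control T cells. The 2 libraries shared 91 barcodes. The oligodendrocyte gate, of a main cell type of the optic nerve, held 3604 cells in the vancomycin library and 0 in the control library, while microglia numbered 990 with vancomycin and 862 in control. The protocols in the labels name the meningeal dura beside the optic nerve, and both libraries are labelled optic nerve. The part of these differences in the results below was not tested, and some results that change without the cells concerned are given both ways.

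Levels are given as CPM, the UMIs of a gene per 1000000 UMIs of all cells of a gate. Ratios between libraries are log2((vancomycin CPM + 10) / (control CPM + 10)), and a gene was called when this was at least 2-fold and the interval of the plain ratio left out 1, among genes with at least 50 UMIs over both libraries. In T cells as a whole, Tox was the 1 gene of the 10 called higher with vancomycin and Satb1 the 1 gene called lower. Of all 13649 genes measured there, 5.77% were called higher and 1.52% lower, so that 1 in 10 is near the background for higher calls. The median log2 ratio of the 10 genes was 0.29, against 0.09 over all genes. In CD8 cells Tox was called higher and Lef1 and Satb1 lower, where 6.74% of 11874 genes were called higher and 1.92% lower. In CD4 cells Tox was again called higher and Satb1 lower, against 8.04% and 2.49% of 10703 genes. In Foxp3 cells Satb1 was the only one of the 10 called, as lower, against 2.67% of 8802 genes called lower and 8.66% called higher.

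**Figure D1:**
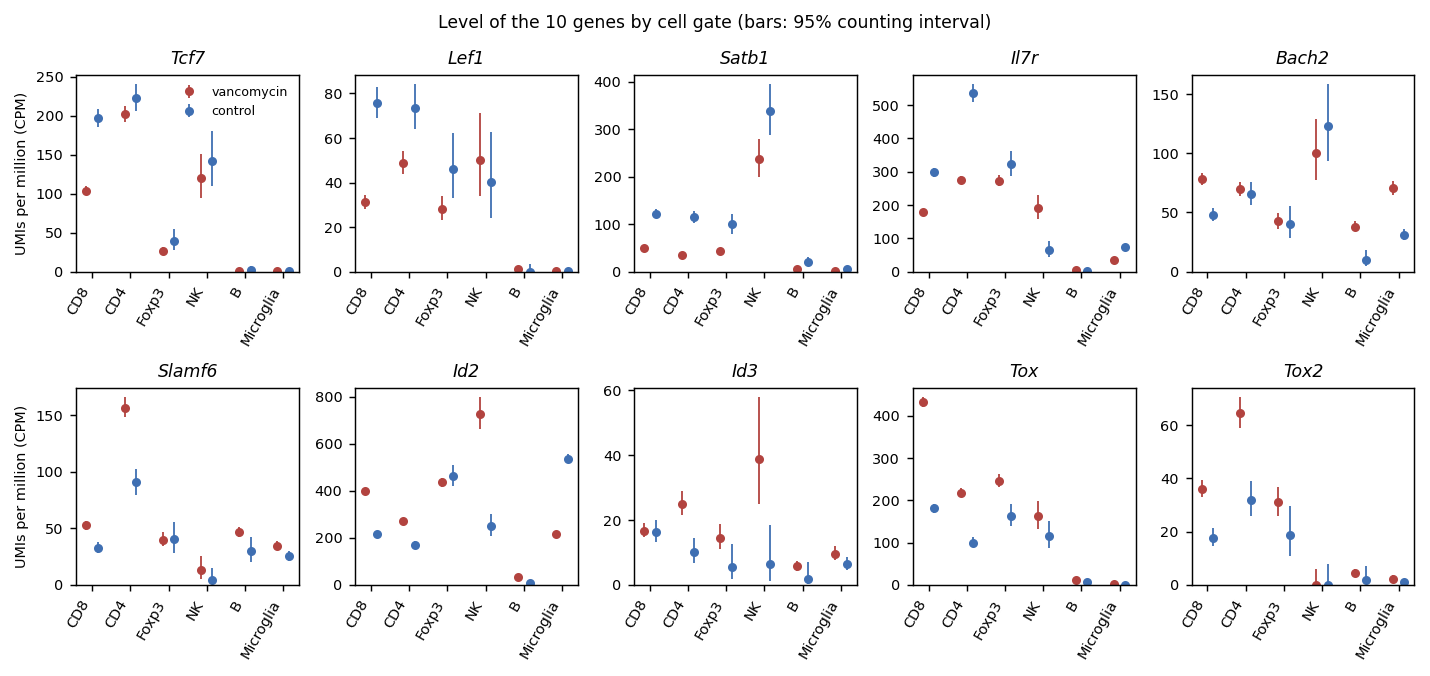
Level of each of the 10 genes (vertical axes, CPM, each from 0) in 6 gates (horizontal axes), with the vancomycin library in red left of the control library in blue and bars for 95% counting intervals. Tcf7, Lef1 and Tox sit at or near 0 in B cells and microglia of both libraries, and Tox in CD8 cells stands at 433 CPM with vancomycin and 181 CPM in control.

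Tcf7 (ENSMUSG00000000782, chr11:52252371-52283014, minus strand) encodes TCF-1, which binds DNA at Wnt-responsive sites and is needed for T cell development and memory. In CD8 cells it stood at 104 CPM in the vancomycin library (1389 UMIs), against 197 CPM in the control library (1162 UMIs). The plain ratio was 0.527 (0.487 to 0.570), just short of a 2-fold difference, with a log2 value of -0.86 after the added 10 CPM. In CD4 cells it was 202 CPM with vancomycin and 223 CPM in control, a ratio of 0.909 (0.828 to 0.998). CD4 cells with a Tcf7 UMI made up 49.1% with vancomycin and 51.3% in control, yet 22.3% with vancomycin and 19.0% in control once every cell was thinned to 1000 UMIs. The thinned share ran against the CPM there, so no order is read for CD4 cells. Foxp3 cells held little Tcf7, at 26.6 CPM with vancomycin and 39.4 CPM in control, with an interval of the ratio that included 1 (0.460 to 1.01). The level in Foxp3 cells was below that in CD4 cells of the same library by log2 values of -2.54 with vancomycin and -2.24 in control. In microglia, which should lack the gene, a Tcf7 UMI was found in 0.202% of vancomycin cells and 0.348% of control cells, at median depths of 6878.5 UMIs with vancomycin and 6427 UMIs in control. The share in CD8 cells was 39.5% with vancomycin and 52.7% in control, at median depths of 5515 UMIs with vancomycin and 5677 UMIs in control, and 11.8% with vancomycin and 16.8% in control after thinning.

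The order of the Tcf7 levels was alike in the libraries at its ends, with CD4 cells highest and B cells and microglia lowest. With vancomycin, CD4 cells (202 CPM) came before NK cells (120 CPM) and CD8 cells (104 CPM), and the NK interval of 94.2 to 151 CPM held the CD8 level. In control, CD4 cells (223 CPM) and CD8 cells (197 CPM) came before NK cells (142 CPM). Weighting every T cell equally and leaving out cells with markers of other types brought the log2 ratio of all T cells to -0.05 for Tcf7, against -0.57 from summed UMIs. In CD8 cells the same change brought it to -0.45, against -0.86.

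Lef1 (ENSMUSG00000027985, chr3:131110471-131224356, plus strand) encodes LEF-1, which binds the same sites as TCF-1. In CD8 cells it stood at 31.3 CPM with vancomycin (419 UMIs) and 75.7 CPM in control (447 UMIs), a ratio of 0.413 (0.361 to 0.473) and a log2 value of -1.05. A Lef1 UMI was found in 15.7% of CD8 cells with vancomycin and in 29.5% in control, and after thinning in 3.45% with vancomycin and 8.24% in control. Lef1 in CD4 cells was 48.9 CPM with vancomycin and 73.7 CPM in control, and in Foxp3 cells 28.3 CPM with vancomycin and 45.9 CPM in control, neither of them called. NK cells held 50.3 CPM with vancomycin and 40.2 CPM in control, with overlapping intervals of 34.2 to 71.4 CPM with vancomycin and 24.2 to 62.8 CPM in control. The call in CD8 cells was just past the 2-fold line. It ended when cells with Scrublet doublet scores over 0.2 or cells with markers of other types were left out, when every cell was weighted equally, and with 50 CPM added.

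Satb1 (ENSMUSG00000023927, chr17:51736187-51833290, minus strand) encodes a chromatin organiser needed in the thymus. It was called lower in all 3 T cell subsets. It stood at 48.8 CPM with vancomycin and 122 CPM in control in CD8 cells, at 34.4 CPM with vancomycin and 115 CPM in control in CD4 cells, and at 43.9 CPM with vancomycin and 99.5 CPM in control in Foxp3 cells. The ratio was 0.399 (0.358 to 0.444) in CD8 cells, 0.298 (0.253 to 0.352) in CD4 cells and 0.441 (0.341 to 0.574) in Foxp3 cells. In NK cells, where it was highest in both libraries, it stood at 237 CPM with vancomycin and 339 CPM in control, a ratio of 0.699 (0.555 to 0.880). In B cells, which held little of it, Satb1 stood at 6.07 CPM with vancomycin (54 UMIs) and 20.8 CPM in control (21 UMIs). Less the median log2 ratio of the same gene in NK, B, microglia, border macrophage and dendritic gates, the value in CD8 cells was -0.67, short of the 2-fold line. The call in CD8 cells also ended with 50 CPM added, with cells thinned to 1000 UMIs (-0.99), and with every cell weighted equally and cells with markers of other types left out together (-0.96).

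Il7r (ENSMUSG00000003882, chr15:9505788-9530176, minus strand) encodes the alpha chain of the interleukin 7 receptor, which carries a survival signal in naive and memory T cells. It stood at 180 CPM with vancomycin and 298 CPM in control in CD8 cells, a ratio of 0.604 (0.568 to 0.643). In CD4 cells it was 275 CPM with vancomycin and 536 CPM in control, a ratio of 0.513 (0.480 to 0.548). Foxp3 cells differed least, with 273 CPM with vancomycin and 324 CPM in control and a ratio of 0.844 (0.742 to 0.963). None of these was called. In NK cells the direction was the opposite, with 191 CPM with vancomycin (118 UMIs) against 65.6 CPM in control (31 UMIs), a log2 value of 1.41 that was called higher. Of 3493 genes measured in NK cells, 4.01% were called higher and 5.58% lower. A share of 25% of the 128 vancomycin NK cells and 12.6% of the 87 control NK cells held an Il7r UMI, and after thinning the shares were 11.7% with vancomycin and 8.14% in control. As the share of Eomes-positive cells in the NK gate differed between the libraries, a different make-up of the gate and a different level per cell cannot be told apart. Microglia held Il7r at 33.6 CPM with vancomycin and 73.0 CPM in control, so that this gene's share in microglia is no measure of free RNA.

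Bach2 (ENSMUSG00000040270, chr4:32238804-32586108, plus strand) encodes a repressor that restrains effector differentiation. It stood at 78.1 CPM with vancomycin and 48.1 CPM in control in CD8 cells, at 69.8 CPM with vancomycin and 65.7 CPM in control in CD4 cells, and at 42.4 CPM with vancomycin and 40.4 CPM in control in Foxp3 cells. The ratio in CD8 cells was 1.62 (1.42 to 1.86) and the other 2 intervals included 1. Less the median of genes of like genomic span, the log2 value in CD8 cells was -0.07, against 0.60 as measured. In the B cell gate it was 38.1 CPM with vancomycin (339 UMIs) and 9.91 CPM in control (10 UMIs from 46 cells). It was called higher there, where 5.8% of 7826 genes were called higher and 0.767% lower. B cells use Bach2 before they become plasma cells, and this gate held Jchain at 37196 CPM with vancomycin and 38126 CPM in control. Ms4a1, a B cell marker, stood at 161 CPM with vancomycin and 83.3 CPM in control. A different make-up of the gate and a different level per cell cannot therefore be told apart.

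Slamf6 (ENSMUSG00000015314, chr1:171917515-171953170, plus strand) encodes a surface receptor that marks progenitor exhausted cells in the mouse. It stood at 52.9 CPM with vancomycin and 32.9 CPM in control in CD8 cells, a ratio of 1.61 (1.37 to 1.90). In CD4 cells it was 157 CPM with vancomycin and 90.7 CPM in control, a ratio of 1.73 (1.51 to 1.99). In Foxp3 cells it was 40.0 CPM with vancomycin and 40.4 CPM in control. None of these was called. With cells thinned to 1000 UMIs, Slamf6 passed the 2-fold line at log2 values of 1.15 in CD8 cells, against 0.55 as measured, and 1.23 in all T cells, against 0.65. CD8 cells held less Slamf6 than CD4 cells of the same library, by log2 values of -1.41 with vancomycin and -1.23 in control. Slamf6 was the 1 gene of the 10 that differed at least 2-fold between CD8 and CD4 cells in both libraries. The share of all genes that did so was not counted.

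Id2 (ENSMUSG00000020644, chr12:25093799-25097140, minus strand) and Id3 (ENSMUSG00000007872, chr4:136143497-136145755, plus strand) encode proteins that bind E proteins and keep them off DNA, Id2 being linked to effector cells and innate lymphocytes and Id3 to memory precursors. Id2 stood at 399 CPM with vancomycin and 218 CPM in control in CD8 cells, a ratio of 1.83 (1.72 to 1.95). In CD4 cells it was 271 CPM with vancomycin and 172 CPM in control, a ratio of 1.58 (1.43 to 1.75). Foxp3 cells held 435 CPM with vancomycin and 463 CPM in control, with an interval of 0.845 to 1.05 that included 1. NK cells held 727 CPM with vancomycin and 252 CPM in control, a log2 value of 1.49 that was called higher. After thinning, 39.8% of vancomycin and 24.4% of control NK cells held an Id2 UMI, with overlapping intervals. The limit given for Il7r in the NK gate applies to Id2 as well. Leaving out cells with markers of other types took Id2 in CD8 cells past the 2-fold line, as did thinning and weighting every cell equally. In microglia Id2 went the other way, with 216 CPM with vancomycin and 537 CPM in control, a log2 value of -1.27 that was called lower, where 2.5% of 10134 genes were called lower and 2.7% higher. In B cells Id2 stood at 32.2 CPM with vancomycin (286 UMIs) and 7.93 CPM in control (8 UMIs), called higher. The limit given for Bach2 in this gate holds here too.

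Id3 was sparse. It gave 225 UMIs in vancomycin CD8 cells and 97 in control CD8 cells, at 16.8 CPM with vancomycin and 16.4 CPM in control, with a ratio of 1.02 (0.802 to 1.31). In CD4 cells it was 25.1 CPM with vancomycin (191 UMIs) and 10.1 CPM in control (29 UMIs), a plain ratio of 2.49 (1.68 to 3.82) whose log2 value after the added 10 CPM was 0.81 and not called.

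Tox (ENSMUSG00000041272, chr4:6686353-6991557, minus strand) encodes the HMG-box factor tied to exhaustion, and Tox2 (ENSMUSG00000074607, chr2:163203125-163324170, plus strand) a close relative that also acts in follicular helper cells. In CD8 cells Tox stood at 433 CPM with vancomycin (5799 UMIs) and 181 CPM in control (1071 UMIs), a ratio of 2.39 (2.24 to 2.55). A Tox UMI was found in 64.9% of CD8 cells with vancomycin and 37.2% in control, and after thinning in 31.2% with vancomycin and 14.03% in control. In CD4 cells the levels were 218 CPM with vancomycin and 100 CPM in control, a ratio of 2.18 (1.92 to 2.48). Foxp3 cells held 246 CPM with vancomycin and 164 CPM in control, a ratio of 1.502 (1.26 to 1.80) that was not called. NK cells held 164 CPM with vancomycin and 116 CPM in control, with an interval of the ratio of 1.003 to 1.99. Microglia gave a Tox UMI in 0.909% of cells with vancomycin and 0.232% in control. By CPM, CD8 cells were highest in both libraries. With vancomycin, Foxp3 cells came next and then CD4 cells and NK cells. In control the intervals of Foxp3 cells (139 to 192 CPM) and CD8 cells (171 to 193 CPM) overlapped. A Tox UMI was found in 48.9% of control Foxp3 cells, against 37.2% of control CD8 cells. After thinning, the control shares were 15.9% in Foxp3 and 18.6% in NK cells, with intervals that overlapped that of CD8 cells. No order of these gates is therefore read in control.

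Tox2 stood at 36.0 CPM with vancomycin (482 UMIs) and 17.8 CPM in control (105 UMIs) in CD8 cells, a plain ratio of 2.02 (1.64 to 2.52) with a log2 value of 0.73 after the added 10 CPM. In CD4 cells it stood at 64.5 CPM with vancomycin and 32.0 CPM in control. NK cells gave no Tox2 UMI in either library. With 0 of 128 vancomycin cells and 0 of 87 control cells, 3 cells as the floor allow shares of cells with a Tox2 UMI of up to 2.34% with vancomycin and 3.45% in control.

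**Figure D2:**
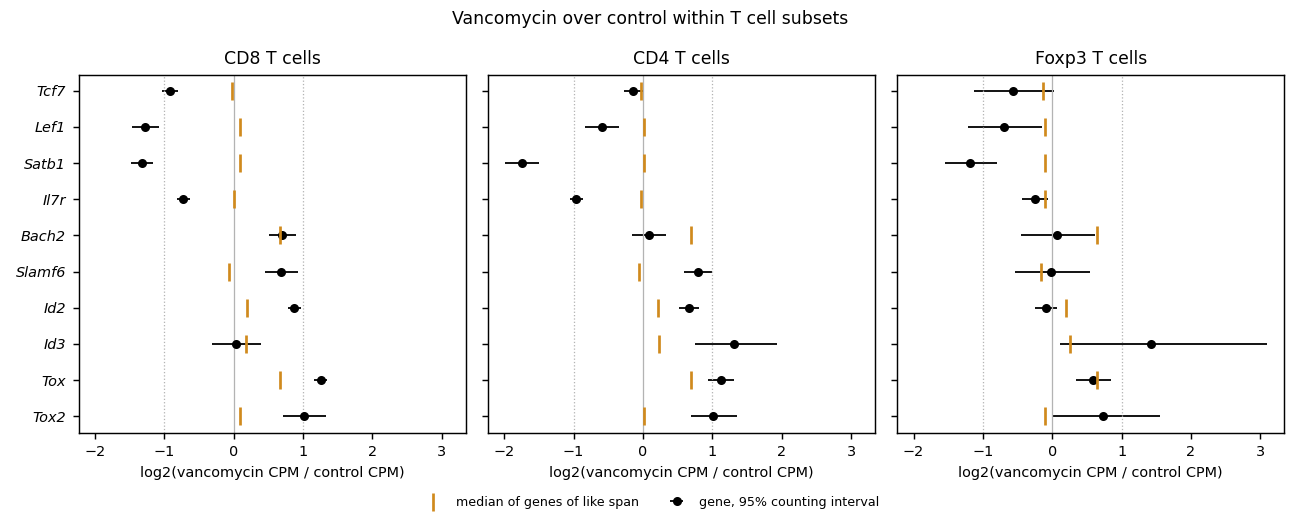
Plain ratio of vancomycin over control CPM (horizontal axes, log2) of the 10 genes in CD8, CD4 and Foxp3 cells, with 95% counting intervals, and orange ticks for the median log2 ratio of genes of like genomic span after adding 10 CPM. Tcf7, Lef1, Satb1 and Il7r lie left of 0 in all 3 panels, and the ticks of Bach2 and Tox stand at 0.64 to 0.69.

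Per the submitters' processing notes, Cell Ranger was run in version 7.2.0 on the vancomycin reads and in version 6.0.1 on the control reads. The sources used here do not give its setting for intronic reads. The ratio between libraries was higher for genes of long genomic span. In T cells the 683 genes with the longest spans, from 219.5 to 2960.9 kb, had a median log2 ratio of 0.53, and 24.6% of them were called higher. Tox spans 305.2 kb and Bach2 347.3 kb, and both fall among these genes. Less the median of genes of like span, Tox had a log2 value of 0.54 in CD8 cells and 0.49 in all T cells, short of the 2-fold line that it passed at 1.21 and 1.02 as measured. Satb1, which spans 97.1 kb, and Lef1, which spans 113.9 kb, had log2 values of -1.25 and -1.14 in CD8 cells against genes of like span, both past the line. Scaling by edgeR's TMM factors or DESeq2's size factors shifted the plain log2 ratios in T cells by -0.15 and -0.16, before 10 CPM was added. This scaling also took Tox in all T cells below the line.

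**Figure D3:**
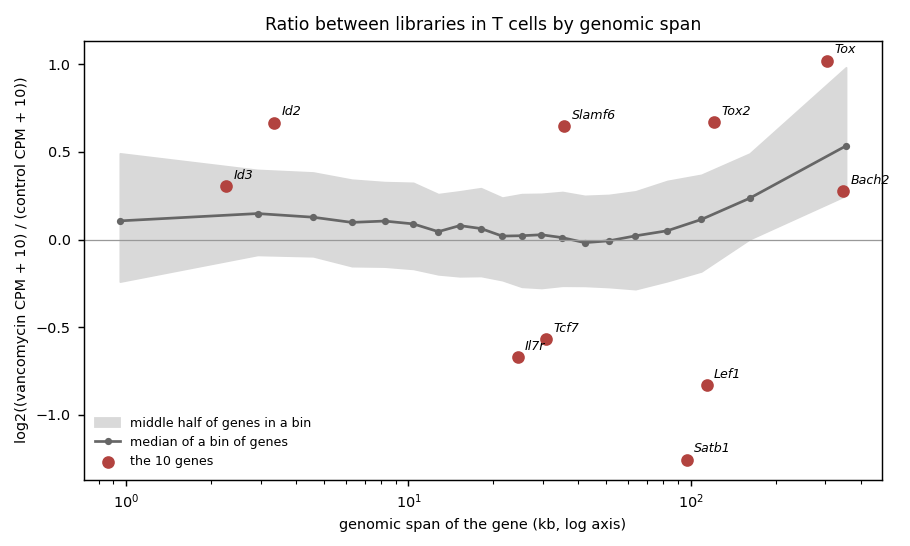
Log2 ratio of vancomycin over control in T cells (vertical axis) against genomic span (horizontal log axis, kb), with the median and quartiles of 20 bins of genes in grey and the 10 genes in red. Tox and Bach2 lie in the last bin, whose median is 0.53, and Satb1 lies lowest at -1.25.

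Lists of related genes were read in the same way in T cells. Of 20 naive and memory genes, 4 were called lower with vancomycin and 1 higher, with a median log2 ratio of -0.36 against 0.09 over all genes. Over all genes in T cells, 1.52% were called lower and 5.77% higher, so that 1 higher call in 20 is near the background. S1pr1, the receptor that lets lymphocytes leave tissue, stood at 18.4 CPM with vancomycin and 106 CPM in control. Klf3 stood at 56.2 CPM with vancomycin and 179 CPM in control, and Eomes at 20.9 CPM with vancomycin and 68.3 CPM in control. Less the median of the 5 other gates (NK, B, microglia, border macrophage and dendritic), Klf3 was at -0.91 and no longer called, against -1.51 as measured. S1pr1 stayed called there, at -1.88. This reading took nothing off Eomes, which stood at -1.34 with and without it, so it is no check on that gene. Foxo1, which drives Il7r and Klf2, was 73.5 CPM with vancomycin and 168 CPM in control. Its log2 value of -1.09 was -0.94, and no longer called, once cells with markers of other types were left out. Less the median of the same 5 gates it was -0.98, also not called. The 1 gene called higher was Xcl1, a chemokine for cross-presenting dendritic cells, at 584 CPM with vancomycin and 270 CPM in control, a log2 value of 1.08 that was short of the line at 0.94 with TMM factors and 0.93 with DESeq2 size factors. The next highest were Cxcr5 and Igfbp4, at log2 values of 0.71 and 0.56.

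Of 30 exhaustion and activation genes, 1 was called higher and 2 lower, against 5.77% and 1.52% of all genes, with a median of -0.26. Batf, an AP-1 factor and the 1 called higher, stood at 206 CPM with vancomycin and 95.8 CPM in control, a log2 value of 1.03 that was short of the line at 0.89 with TMM factors and 0.88 with DESeq2 size factors. Nr4a3, induced by T cell receptor signals, stood at 108 CPM with vancomycin and 448 CPM in control, and Gzmk, a granzyme gene, stood at 149 CPM with vancomycin and 312 CPM in control. Less the median of the 5 other gates, Nr4a3 was at -0.74 and no longer called, against -1.95 as measured. Without cells with markers of other types, Gzmk was at -0.58 and no longer called, against -1.02 as measured. Pdcd1, which encodes PD-1, was 394 CPM with vancomycin and 419 CPM in control, a log2 value of -0.09, and Lag3, another inhibitory receptor gene, was 215 CPM with vancomycin and 169 CPM in control. Neither was called. Cd160 and Zeb2 had log2 values of 0.96 and 0.80, and Nr4a2 one of -0.94.

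Of 20 partners and close relatives of the 10 genes, 18 had enough UMIs, 1 was called higher and 0 lower, against 5.77% and 1.52% of all genes, and the median was 0.17. Tcf4, an E protein gene also expressed outside T cells, stood at 88.4 CPM with vancomycin and 17.5 CPM in control. Its log2 value of 1.84 was 0.76, and no longer called, once cells with markers of other types were left out. Il2rg, the common gamma chain that pairs with the interleukin 7 receptor, stood at 353 CPM with vancomycin and 648 CPM in control, a log2 value of -0.86. Runx3, a CD8 lineage factor, was 90.7 CPM with vancomycin and 165 CPM in control, and Tle3, a co-repressor of TCF-1, was 34.4 CPM with vancomycin and 63.7 CPM in control. Tcf7l2 and Tcf12 had log2 values of 0.64 and 0.60.

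Detection of Tox and Tcf7 in single CD8 cells gave 4 states. Tox alone was found in 40.6% of vancomycin CD8 cells (38.2 to 43.0%) and 20.7% of control CD8 cells (18.1 to 23.4%). Tcf7 alone was found in 15.3% (13.6 to 17.1%) with vancomycin and 36.1% (33.0 to 39.3%) in control. Both were found in 24.3% with vancomycin and 16.5% in control, and neither in 19.9% with vancomycin and 26.7% in control. With all UMIs the commonest state was Tox alone in the vancomycin library and Tcf7 alone in the control library. Tox is among the genes of longest span, whose ratios ran higher with vancomycin, and thinning does not take this off. Its part in the state shares of the 2 libraries was not tested. With every cell thinned to 1000 UMIs, which left out 3 vancomycin and 21 control CD8 cells, Tox alone stood at 27.1% with vancomycin and 12.2% in control. Tcf7 alone then stood at 7.73% with vancomycin and 15.03% in control, where its interval (12.8 to 17.5%) overlapped that of Tox alone (10.2 to 14.6%). Cells with a UMI of neither gene were then the commonest, at 61.1% with vancomycin and 70.9% in control. In CD4 cells Tox alone was found in 26.0% with vancomycin and 15.8% in control, and Tcf7 alone in 18.3% with vancomycin and 35.7% in control. After thinning, Tcf7 alone in CD4 cells was 17.0% with vancomycin and 17.6% in control, with intervals that overlapped. In Foxp3 cells Tox alone was found in 57.8% with vancomycin and 40.4% in control, and Tcf7 alone in 1.86% with vancomycin and 5.67% in control. These shares of Tcf7 alone rest on 11 vancomycin and 8 control cells. Their intervals overlapped (0.934 to 3.31% with vancomycin and 2.48 to 10.9% in control), so no order is read for them. Of the 11 vancomycin cells, 63.6% held markers of other types. NK cells held Tox alone in 23.4% with vancomycin and 14.9% in control, and Tcf7 alone in 14.8% with vancomycin and 23.0% in control, with overlapping intervals for both. After thinning, Tox alone in NK cells was 12.5% with vancomycin and 15.1% in control. Tcf7 alone was then 14.8% with vancomycin and 9.30% in control. Both orders turned round, again with overlapping intervals, so no order is read for NK cells.

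**Figure D4:**
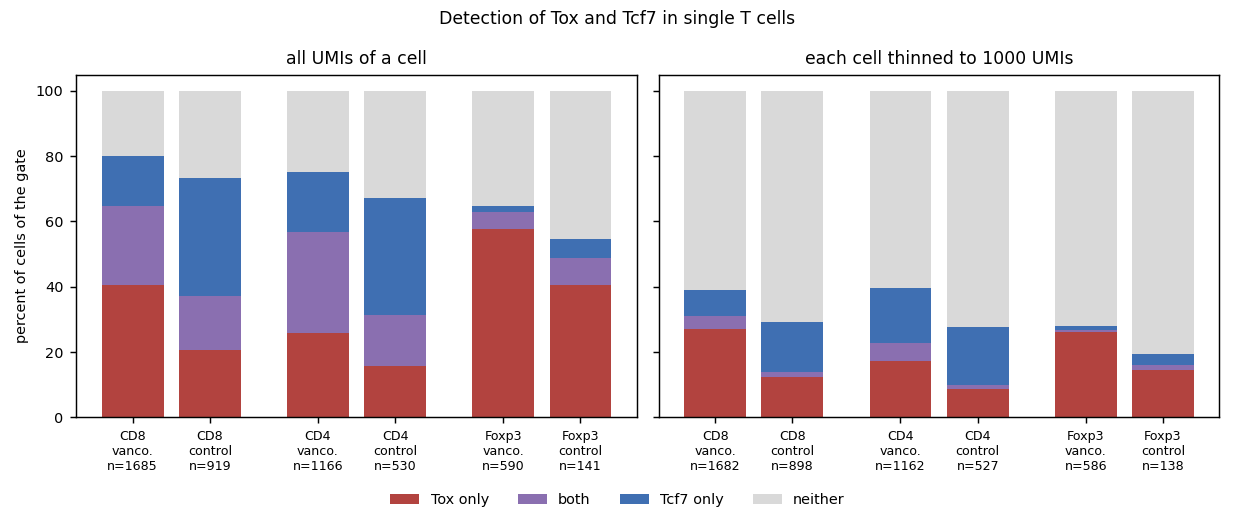
Share of cells (vertical axis, percent) in each Tox and Tcf7 detection state, in CD8, CD4 and Foxp3 cells of the vancomycin library left of the control library, from all UMIs (left panel) and after thinning each cell to 1000 UMIs (right panel). Tox alone in CD8 cells falls at 40.6% with vancomycin and 20.7% in control on the left, and at 27.1% with vancomycin and 12.2% in control on the right.

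Joint detection was set against the number that the product of the 2 shares gives within 10 bins of cells of like depth. The intervals are Poisson intervals of the joint count, with the product taken as fixed. The spread of the joint count given the 2 observed shares was not worked out, so an interval that includes 1 is not read as independence of the genes. In vancomycin CD8 cells both genes were found in 409 cells, 0.921 times the product (0.834 to 1.01). In control CD8 cells both were found in 152 cells, 0.794 times the product (0.673 to 0.931). The interval included 1 in the vancomycin library and lay below 1 in the control library, the intervals overlapped, and a difference between the libraries was not tested. In CD4 cells the ratios were 1.08 (0.974 to 1.20) with vancomycin and 0.938 (0.747 to 1.16) in control. In Foxp3 and NK cells of both libraries all intervals included 1. After thinning, the ratio in CD8 cells was 1.09 (0.846 to 1.38) with vancomycin and 0.763 (0.436 to 1.24) in control, both including 1. CD8 cells with both genes had medians of 7318 UMIs with vancomycin and 6998.5 UMIs in control. CD8 cells with Tox alone were shallower, at 5577.5 UMIs with vancomycin and 5360.5 UMIs in control.

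The same reading was made for all 45 pairs of the 10 genes in CD8 cells, as a description over cells of 1 library each. In 8 pairs joint detection lay above the product in both libraries, with intervals above 1, and in 8 pairs below it in both. Pairs of other genes were not read, so these counts have no background beside them. Pairs above were Tcf7 with Lef1, Satb1, Il7r and Slamf6, Lef1 with Satb1, Satb1 with Il7r, Slamf6 with Id3, and Tox with Tox2. Tcf7 and Slamf6 were found together 1.43 times as often as the product with vancomycin (1.25 to 1.62) and 1.31 times in control (1.06 to 1.60). Tox and Tox2 were found together 1.29 times as often with vancomycin (1.14 to 1.45) and 2.09 times in control (1.58 to 2.72). Pairs below were Tox and Tox2 each with Lef1, Satb1 and Il7r, and Id2 with Tcf7 and with Lef1. Lef1 and Tox2 were the lowest pair in the vancomycin library, at 0.361 times the product from 17 vancomycin cells and 0.355 times from 7 control cells. Tcf7 and Tox2 stood at 0.897 (0.744 to 1.07) with vancomycin and 0.491 (0.291 to 0.776) in control, with intervals that overlapped, and a difference between the libraries was not tested.

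CD8 cells with Tox and no Tcf7 UMI (Tox-only cells) were then set against CD8 cells with Tcf7 and no Tox UMI (Tcf7-only cells) within each library, where both sets share chemistry, software and free RNA. The vancomycin library held 684 Tox-only and 257 Tcf7-only cells, and the control library 190 Tox-only and 332 Tcf7-only cells. Cells with Tcf7 alone had median depths of 5289 UMIs with vancomycin and 5946 UMIs in control. Cells with markers of other types made up 20.8% of the Tox-only cells and 12.8% of Tcf7-only cells with vancomycin, and 3.68% of Tox-only cells and 7.23% of Tcf7-only cells in control. A gene was called when it differed at least 2-fold the same way in both libraries. Of 7009 genes measured, 1.68% were called higher in Tox-only cells and 0.599% lower. Tox and Tcf7 chose the cells and are not counted. Of the other 8 genes, 1 was called higher and 3 lower.

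Tox2 was the one called higher. It stood at 46.6 CPM in Tox-only cells and 6.03 CPM in Tcf7-only cells with vancomycin, from 261 UMIs in Tox-only and 10 UMIs in Tcf7-only cells. In control it gave 71 UMIs in Tox-only cells and 0 UMIs in Tcf7-only cells, at least 41.1-fold higher with 3 UMIs over the set as the floor. Il7r was lower in Tox-only cells, at 71.3 CPM in Tox-only cells against 404 CPM in Tcf7-only cells with vancomycin and 91.8 CPM in Tox-only cells against 410 CPM in Tcf7-only cells in control, with log2 values of -2.35 with vancomycin and -2.05 in control. Lef1 was also lower, at 14.98 CPM in Tox-only cells against 98.3 CPM in Tcf7-only cells with vancomycin and 32.7 CPM in Tox-only cells against 98.6 CPM in Tcf7-only cells in control, with log2 values of -2.12 with vancomycin and -1.35 in control. Satb1 stood at 26.4 CPM in Tox-only cells against 108 CPM in Tcf7-only cells with vancomycin and 53.7 CPM in Tox-only cells against 159 CPM in Tcf7-only cells in control, with log2 values of -1.70 with vancomycin and -1.40 in control. The calls of Il7r and Satb1 were kept with all 7 other ways of reading the comparison. Lef1 and Tox2 were not called with 50 CPM added or with cells thinned before summing, and Tox2 also not when the cells were chosen after thinning. Its log2 values stayed over 1 under both thinned readings, at 1.99 with vancomycin and 2.54 in control with thinning before summing and at 1.08 with vancomycin and 2.10 in control with cells chosen after thinning.

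Id2 stood at 541 CPM in Tox-only cells against 273 CPM in Tcf7-only cells with vancomycin and 482 CPM in Tox-only cells against 115 CPM in Tcf7-only cells in control, with intervals of the ratio above 1 in both. Its log2 values of 0.96 with vancomycin and 1.98 in control left it just outside the call, and it was called once cells with markers of other types were left out, at 1.28 with vancomycin and 2.44 in control. Slamf6 stood at 35.9 CPM in Tox-only cells against 47.7 CPM in Tcf7-only cells with vancomycin, and at 11.7 CPM in Tox-only cells against 35.0 CPM in Tcf7-only cells in control, with log2 values of -0.33 with vancomycin and -1.05 in control. Bach2 hardly differed, at 73.8 CPM in Tox-only cells against 77.8 CPM in Tcf7-only cells with vancomycin and 42.8 CPM in Tox-only cells against 53.8 CPM in Tcf7-only cells in control. Id3 stood at 17.8 CPM in Tox-only cells against 13.3 CPM in Tcf7-only cells with vancomycin and 4.67 CPM in Tox-only cells against 25.5 CPM in Tcf7-only cells in control, the lowest of these values resting on 6 UMIs. The interval of its ratio included 1 with vancomycin (0.841 to 2.24) and lay below 1 in control (0.0644 to 0.423).

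**Figure D5:**
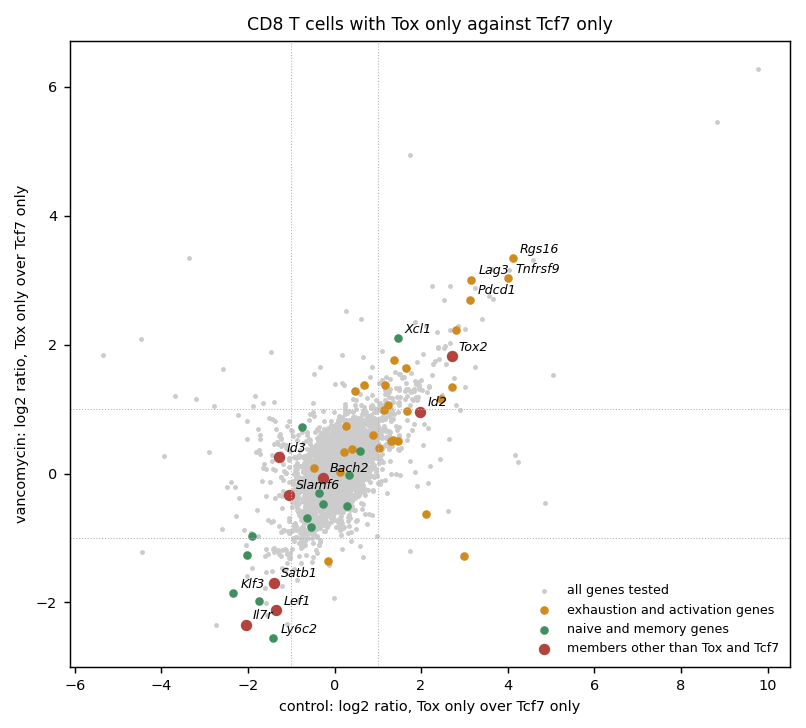
Log2 ratio of CD8 Tox-only cells over CD8 Tcf7-only cells, in the vancomycin library (vertical axis) and the control library (horizontal axis), for all genes measured in grey, 2 gene lists in orange and green and the 8 other genes in red. Il7r, Lef1 and Satb1 lie below -1 on both axes, and Tox2 lies above 1 on both, at 1.82 with vancomycin and 2.71 in control.

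Of 28 exhaustion and activation genes measured, 11 were called higher in Tox-only cells and 0 lower, against 1.68% and 0.599% of all genes. Their median log2 ratios were 0.98 with vancomycin and 1.32 in control, against 0.09 in each library over all genes. Inhibitory receptor genes stood among the 11. Pdcd1 was 849 CPM in Tox-only cells and 122 CPM in Tcf7-only cells with vancomycin, and 1129 CPM in Tox-only cells against 120 CPM in Tcf7-only cells in control. Lag3 was 425 CPM in Tox-only cells against 44.0 CPM in Tcf7-only cells with vancomycin and 518 CPM in Tox-only cells against 49.3 CPM in Tcf7-only cells in control. The remaining ones called were Ctla4, Tigit, Havcr2, Tnfrsf9, Rgs16, Ikzf2, Nr4a2, Batf and Prf1. The granzyme genes Gzmb and Gzma were not called. Gzmb stood at 122 CPM in Tox-only cells against 194 CPM in Tcf7-only cells with vancomycin and 374 CPM in Tox-only cells against 79.3 CPM in Tcf7-only cells in control, and Gzma at 38.5 CPM in Tox-only cells against 108 CPM in Tcf7-only cells with vancomycin and 176 CPM in Tox-only cells against 13.4 CPM in Tcf7-only cells in control. Both were lower in Tox-only cells in the vancomycin library and higher in the control library.

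Of 14 naive and memory genes measured, 4 were called lower in Tox-only cells and 1 higher, against 0.599% and 1.68% of all genes. Klf3 was 31.0 CPM in Tox-only cells against 138 CPM in Tcf7-only cells with vancomycin and 52.9 CPM in Tox-only cells against 309 CPM in Tcf7-only cells in control. Ly6c2, a memory marker of mouse CD8 cells, was 426 CPM in Tox-only cells against 2551 CPM in Tcf7-only cells with vancomycin and 517 CPM in Tox-only cells against 1401 CPM in Tcf7-only cells in control. Cxcr3, a chemokine receptor, and S1pr1 were the others called lower. Xcl1 was the one called higher, at 1190 CPM in Tox-only cells against 270 CPM in Tcf7-only cells with vancomycin and 533 CPM in Tox-only cells against 187 CPM in Tcf7-only cells in control. Of 11 partners and close relatives measured, 0 were called.

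Over all genes, 118 were higher and 42 lower in Tox-only cells in both libraries. The 10 highest by the smaller of both ratios were Rgs16, Gm156, Nrgn, Spp1, Tnfrsf9, Lag3, C2cd4b, Cd200, Nrn1 and Pdcd1. Rgs16, a brake on G protein signals, was 202 CPM in Tox-only cells against 10.9 CPM in Tcf7-only cells with vancomycin and 482 CPM in Tox-only cells against 18.4 CPM in Tcf7-only cells in control. Nrgn stood at 326 CPM in Tox-only cells against 27.1 CPM in Tcf7-only cells with vancomycin. In control it gave 153 UMIs in Tox-only cells (119 CPM) and 1 UMI in Tcf7-only cells, which is under the floor of 3 UMIs. Gm156 and C2cd4b had 0 UMIs in control Tcf7-only cells, which makes them at least 172-fold and 62.5-fold higher there with the same floor of 3 UMIs. The 10 lowest were Il7r, Klf3, Cxcr3, Klhl6, Emb, Gpr183, Gramd3, Itgb7, Ly6c2 and Satb1, so that 2 of the 10 genes described here stood among them. Gpr183, an oxysterol receptor that guides lymphocytes, was 47.1 CPM in Tox-only cells against 221 CPM in Tcf7-only cells with vancomycin and 90.3 CPM in Tox-only cells against 289 CPM in Tcf7-only cells in control.

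In CD4 cells the same comparison called 28 genes higher and 15 lower of 4333, or 0.646% and 0.346%. Of the 6 genes with enough UMIs there, Il7r and Satb1 were called lower and 0 higher. Il7r was 179 CPM in Tox-only CD4 cells and 510 CPM in Tcf7-only cells with vancomycin, and 277 CPM in Tox-only cells against 708 CPM in Tcf7-only cells in control. Satb1 was 20.2 CPM in Tox-only cells against 70.8 CPM in Tcf7-only cells with vancomycin and 29.9 CPM in Tox-only cells against 160 CPM in Tcf7-only cells in control, the smallest count being 11 UMIs. Tox2 had too few UMIs to be measured in CD4 cells, with 35.2 CPM in Tox-only cells against 45.8 CPM in Tcf7-only cells with vancomycin and 57.1 CPM in Tox-only cells against 23.7 CPM in Tcf7-only cells in control. Of 22 exhaustion and activation genes, 8 were called higher and 0 lower in CD4 cells.

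The levels of the 10 genes were last set between libraries within a state of CD8 cells. The states rest on detection of Tox, a gene of long span, and the limit given for their shares holds here too. In Tcf7-only cells, Lef1 was 98.3 CPM with vancomycin and 98.6 CPM in control, a ratio of 0.997 (0.809 to 1.23). Il7r in these cells was 404 CPM with vancomycin and 410 CPM in control, a ratio of 0.983 (0.888 to 1.09). Tcf7-only cells were the only state in which these intervals included 1, and over all CD8 cells both lay below 1. Satb1 stood at 108 CPM with vancomycin and 159 CPM in control, a ratio of 0.681 (0.565 to 0.817). Id2 stood at 273 CPM with vancomycin and 115 CPM in control, a ratio of 2.37 (2.03 to 2.77). In cells with both Tox and Tcf7, Lef1 was 18.9 CPM with vancomycin and 72.3 CPM in control, a ratio of 0.261 (0.191 to 0.357). Il7r in these cells stood at 209 CPM with vancomycin and 319 CPM in control, a ratio of 0.653 (0.580 to 0.737). The ratio of Lef1 was 0.458 (0.313 to 0.681) in Tox-only cells and 0.582 (0.432 to 0.784) in cells with neither gene. That of Il7r was 0.777 (0.631 to 0.962) in Tox-only cells and 0.846 (0.732 to 0.978) in cells with neither gene. In Tox-only cells, Slamf6 was 35.9 CPM with vancomycin and 11.7 CPM in control, from 201 UMIs with vancomycin and 15 in control, and Id2 was 541 CPM with vancomycin and 482 CPM in control.

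When the vancomycin levels in the 4 states were weighted by the control library's share of UMIs in each state, the log2 ratio of Lef1 in CD8 cells was -0.43, against -1.05 as measured. That of Il7r was -0.20 against -0.70, that of Satb1 -0.72 against -1.17, and that of Tox2 0.28 against 0.73. Id2, Slamf6 and Bach2 moved less, to 0.66, 0.49 and 0.56 against 0.84, 0.55 and 0.60. This is a description, since the states were read from Tox and Tcf7 in the same cells. The shares used as weights carry the same limit of the span of Tox.

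Between cell types of 1 library the software was shared, whereas depth was not, with medians of 15910 UMIs in B cells, 4550 UMIs in T cells and 4091 UMIs in NK cells of the vancomycin library and 23036.5 UMIs in B cells, 5166 UMIs in T cells and 4746 UMIs in NK cells of the control library. NK cells held at least 2-fold more Satb1 than CD8 cells in both libraries, by log2 values of 2.07 with vancomycin and 1.40 in control. They held less Slamf6 and Tox2, with no Tox2 UMI at all. T cells held at least 2-fold more than B cells of 7 of the 10 genes in both libraries, namely Tcf7, Lef1, Satb1, Il7r, Id2, Tox and Tox2. The share of all genes that differed so between gates was not counted, so these differences have no background beside them. Bach2 and Slamf6 were read in B cells at 38.1 and 46.4 CPM with vancomycin and at 9.91 and 29.7 CPM in control. All B cell levels here are those of a gate rich in Jchain.

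The genes most like Tcf7 and Tox were sought over 8 gates in both libraries, 16 points in all, on log2(CPM + 10) centred within a library. The 5 nearest to Tcf7 by Pearson's r were Arap2 (0.96), Sidt1 (0.93), Abcb1a (0.93), Ms4a4b (0.93) and Rnf187 (0.92). The 5 nearest to Tox were Hdac7 (0.96), Il27ra (0.95), Shisa5 (0.95), Cers4 (0.95) and Abhd8 (0.95). These points share libraries and gates, and the values describe the pattern only.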

How the data were processed

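Optic nerve cells were measured in 1 vancomycin and 1 control library. The authors deposited raw UMI counts per gene and barcode. The submitters' processing notes name mm10, Partek, and Cell Ranger 7.2.0 (vancomycin) and 6.0.1 (control), the handling of intronic reads being not given in the sources used here. Barcodes needed 500 UMIs and 200 genes, and no more than 20% mitochondrial UMIs, which kept 15726 of 16596 with vancomycin and 4108 of 4272 in control. Doublets were kept in the reported values. Scrublet scores (scanpy 1.11.5) were over 0.2 in 511 vancomycin cells (3.25%) and 52 control cells (1.27%).

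Cells were gated on raw marker UMIs, T cells on at least 2 Cd3 UMIs. CD8 cells had Cd8a or Cd8b1 and no Cd4 or Foxp3, CD4 cells had Cd4 and none of the other 3 markers, and Foxp3 cells had Foxp3 and no CD8 marker. Other gates held at most 1 Cd3 UMI and at least 3 UMIs of Ncr1, Klrb1c, Eomes, Klra8 and Klra4 (NK cells), or at least 4 UMIs summed over the B cell or the microglia markers. UMIs were summed per gate and scaled to CPM. Intervals are exact Poisson for levels, exact conditional Poisson for ratios of levels and Clopper-Pearson for shares. Those of joint detection are exact Poisson for the joint count, divided by the product. Of each list the 3 highest and 3 lowest genes are named, and of all genes in the Tox-only comparison the 10 highest and 10 lowest by the smaller ratio of both libraries, without ribosomal, mitochondrial and receptor variable genes. The 5 genes most like Tcf7 and Tox were taken among those of at least 50 CPM in 1 gate. Genes and lists were chosen with earlier results of these data known. Spans came from GENCODE annotation of GRCm38. The calculation was tested on simulated data. R 4.3.3 with edgeR 4.0.16 and DESeq2 1.42.0 gave scaling factors only, and Python 3.11.15 the rest.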

Additional observations from a re-analysis of the deposited data

Results flagged for a closer look

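The ratio of Il7r between the libraries went opposite ways in 2 gates. Its log2 value was 1.41 in NK cells, higher with vancomycin, and -0.67 in T cells, lower with vancomycin. The difference between these gates was not tested, each group having 1 library.

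The ratio of Id2 went opposite ways as well. Its log2 value was -1.27 in microglia, lower with vancomycin, and 0.67 in T cells, higher with vancomycin. This difference was not tested either.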

How the results depend on the processing

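With 1 library per group no replicate could be left out. No paired analysis was possible because each group has 1 library and no result comes from a test. The other readings kept the sign of each log2 ratio of the 10 genes in T and CD8 cells, except for Bach2 in both gates and Id3 in CD8 cells, which reached -0.48, -0.15 and -0.24 less the median of 5 other gates. In T cells as a whole, the count of the 10 genes called higher (1 as reported) was 0 with 50 CPM added, TMM scaling, DESeq2 size factors, the like-span median or the other-gate median taken off, 2 with cells thinned to 1000 UMIs, and 3 with every cell weighted equally and cells with markers of other types left out, a reading added after the data were seen. The count called lower (1) was 0 with 50 CPM added and less the other-gate median. In CD8 cells the count called higher (1) was 0 less the like-span median, 3 after thinning, and 2 with cells weighted equally, with cells of other markers left out, with both, and less the other-gate median. The count called lower in CD8 cells (2) was 0 with 50 CPM added and with equal weight and other markers left out together, and 1 with equal weight, thinning, Scrublet scores over 0.2 left out, other markers left out, and less the other-gate median.

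For CD8 cells, Tox alone with vancomycin (40.6%) was 27.1% after thinning and 37.5% over all T cells, and in control (20.7%) was 16.6% at 2 UMIs of a gene and 12.2% after thinning. Tcf7 alone with vancomycin (15.3%) was 9.79% at 2 UMIs, 7.73% after thinning to 1000 UMIs and 11.2% to 2000 UMIs, and in control (36.1%) was 27.3%, 15.03% and 24.7% under these readings and 32.1% over all T cells. Joint detection over its product was 1.09 with vancomycin after thinning to 1000 UMIs (0.921 as reported), and in control (0.794) was 0.636 at 2 UMIs and 0.617 after thinning to 2000 UMIs. Genes higher in Tox-only than in Tcf7-only CD8 cells (118) numbered 36 with 50 CPM added, 64 with cells chosen after thinning and 36 with cells thinned before summing, and 36, 51 and 21 of these were among the 118. Genes lower (42) numbered 11, 23 and 24, with 11, 21 and 19 among the 42. Thinning left 1608 genes with enough UMIs, against 7009. The count of the 10 genes that differed between CD8 and CD4 cells in both libraries (1) was 0 with 50 CPM added, a reading added after the data were seen. The related lists in T cells were put through the same readings as the 10 genes, a choice made after the data were seen, and the naive and memory genes called lower (4) numbered 2 to 5. The cause of the other changes was not tested. Small counts limit Id3 and many values in NK and control B cells, and also others such as Tcf7 in Foxp3 cells.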
